A study of Homo sapiens with 14 samples.

Results

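miR-483 was examined as both mature arms of its hairpin, miR-483-5p and miR-483-3p, in small RNA from extracellular vesicles (EVs), which are membrane-bound particles shed by cells into the culture medium. The members were the 2 rows of the raw count table with these names, out of 2632 miRNA rows, read across all 14 libraries. They were chosen by measured values of these data: the 2 arms had the highest mean shares of counts, and the low level of the 3p arm in the FGF group had already been seen. Their levels and the differences between groups are therefore given as descriptions, without tests.

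The cells of all libraries were pro-epicardial cells, the precursors of the outer layer of the heart, made from the embryonic stem cell line hES-2 and thawed from frozen stocks. The NT group (3 libraries) had no additive and is labelled as pro-epicardial. The SB group (4 libraries) was kept in 6 µM SB-431542, a blocker of TGF-β receptor signalling, for 8 days and is labelled as mature epicardial. The TGFb group (4 libraries) had 5 ng/ml TGF-β1 for 4 days followed by 4 days without it, and the FGF group (3 libraries) had 10 ng/ml basic FGF for 8 days. All 4 groups share 1 cell line, a change on day 4 to medium passed through a 100 kDa filter, and collection on days 6 and 8 after 48 h of conditioning. No label says that the replicates came from separate differentiations, so the spread between libraries may be technical.

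MIR483 lies on chromosome 11 (GRCh38, 2134134 to 2134209, minus strand, 76 bases). GENCODE 29 places it in an intron of all 9 IGF2 transcripts that span it, and in no exon of them. That intron ends at 2135366 in each transcript and begins at 2133666 or 2133675. IGF2 encodes insulin-like growth factor 2, an imprinted fetal growth factor that the developing epicardium is known to secrete and that drives the division of heart muscle cells. A miRNA hairpin is cut to a duplex of 2 arms, of which usually 1 is kept in the silencing complex and the other is degraded. Both arms of miR-483 are known as stable miRNAs: the 3p arm represses the pro-apoptotic gene BBC3 (PUMA), and the 5p arm has been described as a regulator of its own host gene.

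Of the 7 miRNAs that the results below turn on, 4 have an entry in the RefSeq table of mature miRNAs (build GRCh38.p14). They are shown because their levels rose or fell across libraries most like, or most unlike, those of miR-483. Capitals mark the seed, bases 2 to 8, which pairs with targets; the 4 seeds all differ. miR-99b-5p is encoded at chromosome 19, 51692618 to 51692639, and miR-125a-5p at 51693268 to 51693291 of the same chromosome. miR-143-3p is encoded at chromosome 5, 149428978 to 149428998, and miR-21-5p at chromosome 17, 59841273 to 59841294, all on the plus strand.
miR-99b-5p: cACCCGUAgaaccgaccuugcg
miR-125a-5p: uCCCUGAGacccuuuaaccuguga
miR-143-3p: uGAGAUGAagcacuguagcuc
miR-21-5p: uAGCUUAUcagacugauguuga

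The libraries were shallow, with totals from 115 to 14862 counts. No 2 of them held identical values. Of the lists of miRNAs that mark other sources, the pluripotency list summed to 5 counts in all (0.0106% of counts), with 6 of 8 members at 0. The hepatic list, checked because fetal liver is known for IGF2, summed to 39 counts, of which 34 were miR-122-5p. It ranged from 0% to 0.396% of counts in NT, 0% to 3.91% in SB, 0% to 0.217% in TGFb and 0.0309% to 0.870% in FGF. In the red cell and serum list the defining red cell miRNA, miR-451a, was at 0, as were miR-144-3p and miR-144-5p. Of the 478 counts of this list, 390 were miR-16-5p, 79 miR-126-3p, 6 miR-486-5p and 3 miR-223-3p. The list ran from 0.188% to 1.88% in NT, 1.65% to 4.47% in SB, 0.374% to 1.73% in TGFb and 0.870% to 5.30% in FGF. The mesenchymal list was from 0% to 0.891% in NT, 0.131% to 1.68% in SB, 0.0705% to 1.30% in TGFb and 2.07% to 6.96% in FGF. Of its 214 counts, 161 were miR-143-3p and 46 miR-199a-3p. miR-145-5p, miR-199a-5p and miR-214-3p had 4, 1 and 2. The list is thus mostly miR-143-3p, which is named again below from the same counts. The FGF values of the list lay above those of the other groups, beside the low miR-483-3p described next. Their part in that was not tested. The epithelial list ran from 0% to 1.84% over the libraries. The ends of all these ranges can rest on few counts, since FGF replicate 2 held 115 counts and SB replicate 2 held 179.

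The 2 arms together made up 18087 of 47091 counts, or 38.4%, and 13.0% to 49.9% of single libraries. miR-483-5p was the most counted miRNA in 13 of 14 libraries. The exception was SB replicate 2, where miR-483-3p came first and the 5p arm was in place 3. By mean share the arms (21.2% and 8.65%) were followed by miR-125a-5p (6.89%), miR-1246 (3.82%) and miR-92a-3p (3.01%). The 5p count was a mean of 2.93 ± 1.70 times (SD, n = 14) that of the most counted other miRNA in the same library. miR-483-3p was among the first 3 miRNAs in all 11 libraries outside the FGF group. It was in place 6, 15 and 4 in FGF replicates 2, 3 and 4.

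miR-483-5p took 28.7%, 26.9% and 15.4% of counts in NT replicates 1, 3 and 4. In SB it took 23.2%, 7.26%, 28.6% and 15.2% in replicates 1 to 4, and in TGFb 38.9%, 16.5%, 37.7% and 16.9%. In FGF it took 7.83%, 25.1% and 9.33% in replicates 2 to 4. The highest values belonged to TGFb and the lowest to SB and FGF, but every pair of groups overlapped. Group means ran from 27.5% ± 12.5 (SD, n = 4) in TGFb through 23.7% ± 7.20 (n = 3) in NT and 18.6% ± 9.31 (n = 4) in SB to 14.1% ± 9.54 (n = 3) in FGF. Neighbours in this order differed by less than their spread. NT had no replicate 2 and FGF no replicate 1, so these means do not cover the same replicate numbers. The 5p share also differed by replicate number, as described below. The lowest values rest on few counts: 13 of 179 in SB replicate 2 (95% Wilson interval 4.29% to 12.0%) and 9 of 115 in FGF replicate 2 (4.17% to 14.2%). Intervals cover counting error only.

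miR-483-3p took 10.7%, 15.45% and 6.44% of counts in NT replicates 1, 3 and 4. In SB it took 11.01%, 11.7%, 10.8% and 8.32% in replicates 1 to 4, and in TGFb 11.001%, 6.49%, 10.3% and 7.98%. In FGF it took 5.22%, 1.60% and 4.03% in replicates 2 to 4. All 3 FGF libraries lay below all 11 others. NT had a mean of 10.9% ± 4.51 (SD, n = 3), SB of 10.5% ± 1.48 (SD, n = 4), TGFb of 8.95% ± 2.09 (SD, n = 4) and FGF of 3.62% ± 1.84 (SD, n = 3), and the first 3 differed from each other by less than their spread. The gap between the highest FGF library and the lowest of the others is within counting error: 6 of 115 counts in FGF replicate 2 allow 2.41% to 10.9%, which includes the 6.44% of NT replicate 4. FGF replicate 3, with 52 of 3241 counts, has an interval of 1.23% to 2.10%. Shares are relative, so a lower share cannot be told apart from more of other miRNAs, nor fewer releasing cells from less miR-483 per cell.

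**Figure D1:**
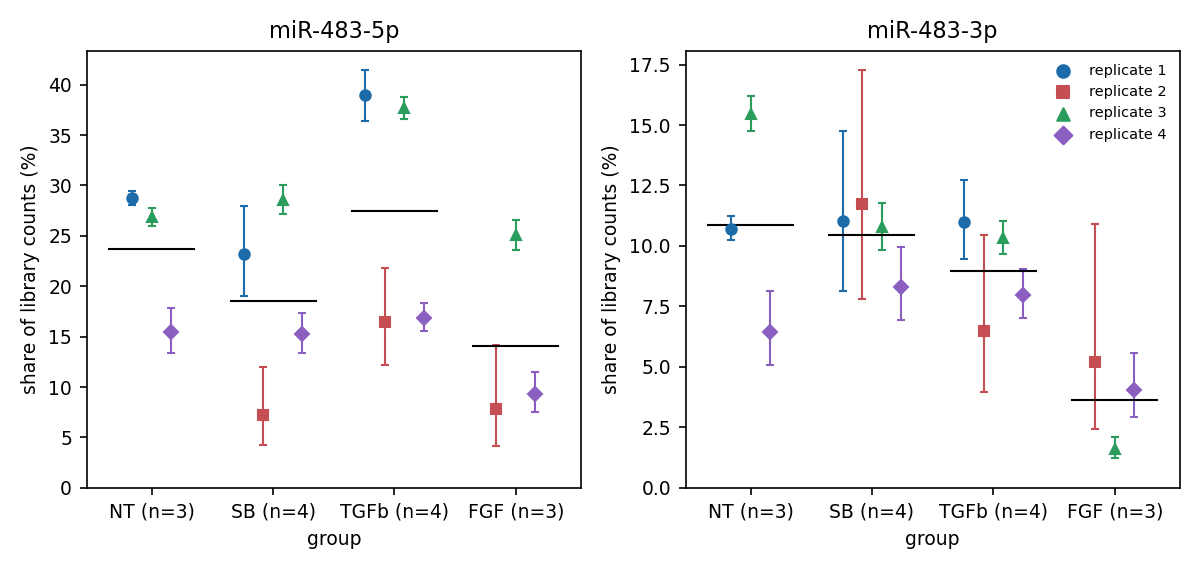
Share of each library's counts (%, from 0) taken by miR-483-5p (left) and miR-483-3p (right) in the 4 groups; each point is 1 library with its 95% Wilson interval, the symbol gives the replicate number, and the black line is the group mean. The 3p arm is lowest in the 3 FGF libraries (1.60% to 5.22%), while the 5p arm overlaps between all groups.

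A model across the 47 miRNAs with enough counts (edgeR, TMM normalization) gave the difference in level of each arm between groups on the log2 scale. Against NT, miR-483-3p was lower in FGF by a log2 fold change of −2.22 (SE 0.57), the second lowest of the 47 values. The 5p arm had −1.16 (SE 0.69) in the same comparison. In SB the values against NT were −0.34 (SE 0.50) for 3p and −0.60 (SE 0.63) for 5p. In TGFb they were −0.21 (SE 0.50) for 3p and 0.30 (SE 0.64) for 5p. Of these 4 SB and TGFb values, none was as large as its SE. Since the 2 arms are a large part of each library, the values depend on the scaling. With miR-483 left out of the library sizes, SB had −1.38 (SE 0.84) for 5p and −1.09 (SE 0.70) for 3p. TGFb then had −0.23 (SE 0.84) for 5p, with the sign turned, and −0.73 (SE 0.69) for 3p. FGF had −1.999 (SE 0.94) for 5p and −3.13 (SE 0.83) for 3p. These 3 comparisons share the NT libraries. The median over the 47 miRNAs lay between −0.04 and 0.09 in them.

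Between the treated groups, TGFb was above FGF in both arms, by 2.01 (SE 0.55) for 3p and 1.47 (SE 0.66) for 5p. FGF was below SB by −1.88 (SE 0.55) in 3p and −0.57 (SE 0.64) in 5p. Between TGFb and SB, which had the pathway stimulated and blocked, 5p differed by 0.90 (SE 0.59) and 3p by 0.13 (SE 0.47). The FGF differences rest on 3 libraries. Without FGF replicate 3, the 5p values were −2.73 against NT and −1.62 against SB, and TGFb was 2.90 above FGF. Without FGF replicate 4, the 3p arm was −3.05 against NT and TGFb was 2.75 above FGF.

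**Figure D2:**
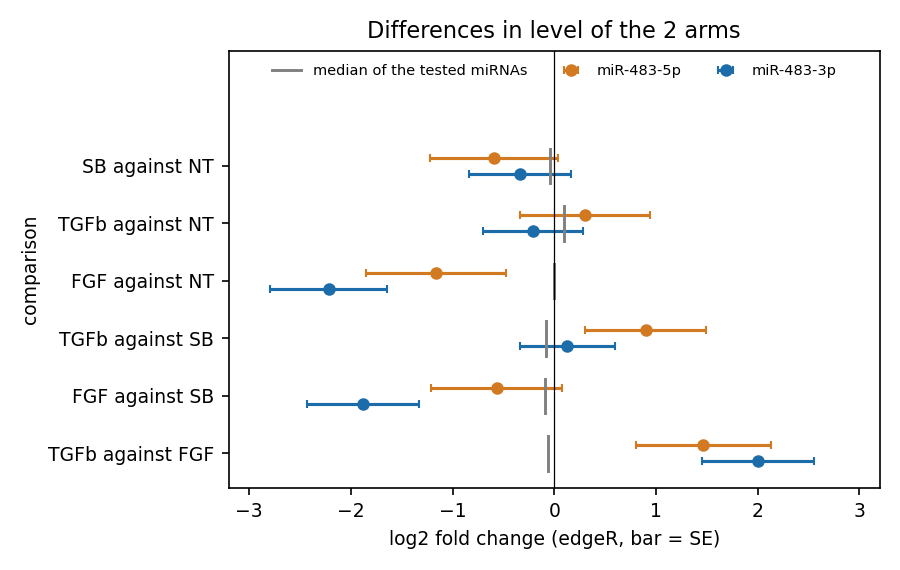
Log2 fold change (horizontal axis, edgeR, bars are SE) of miR-483-5p and miR-483-3p in the 6 comparisons (vertical axis), with the median of the 47 tested miRNAs as a grey tick. In the 3 comparisons with FGF the 3p arm lies farther from 0 than the 5p arm, and between TGFb and SB the 5p arm does (0.90 against 0.13).

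As a background, 2.13% of the 47 miRNAs passed an adjusted p of 0.05 in the edgeR comparison of FGF with NT. The 1 call there was miR-483-3p itself, which is not read as support since it was known at the choice of members. In SB against NT the share was also 2.13%, and the call was miR-125a-5p (log2 fold change −1.98). The other 4 comparisons had 0 calls in edgeR. In them 2 (TGFb against NT), 4 (TGFb against SB), 3 (FGF against SB) and 7 miRNAs (TGFb against FGF) had an unadjusted p under 0.05, and DESeq2 called 0, 0, 1 and 1. The 3 of FGF against SB include miR-483-3p, and the 7 of TGFb against FGF include both arms. Both DESeq2 calls were miR-483-3p, which is not read as support either. Shares of miR-483-3p did not overlap, and were lower in FGF, against NT (where 8.51% of the 47 miRNAs were lower without overlap) and against SB (2.13%). They were higher in TGFb than in FGF without overlap (4.26% of the 47). Each of these percentages counts miR-483-3p itself, which was the 1 miRNA lower in FGF than in SB without overlap. These 3 comparisons share the FGF libraries. In the other 3 comparisons both arms overlapped between groups, where 6.38% of the 47 were lower in SB than in NT without overlap, 8.51% lower in TGFb than in NT, and 6.38% higher in TGFb than in SB.

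The ratio of the 2 arms within a library needs no scaling by the library total. Over all libraries 72.6% of miR-483 counts were of the 5p arm. The 5p:3p ratio was 2.68, 1.74 and 2.40 in NT replicates 1, 3 and 4. It was 2.11, 0.619, 2.65 and 1.83 in SB replicates 1 to 4, and 3.54, 2.53, 3.65 and 2.11 in TGFb. In FGF it was 1.50, 15.6 and 2.31 in replicates 2 to 4. In 12 of 14 libraries the ratio thus lay between 1.50 and 3.65, and 1 library stood on either side. FGF replicate 3 held 812 counts of 5p and 52 of 3p, with an interval of the ratio from 11.8 to 20.6. SB replicate 2 held 13 and 21 counts, and its interval of 0.314 to 1.22 includes equal arms.

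The arm ratio was tested between NT, SB and TGFb, and only described for FGF, because the low 3p arm of that group had helped to choose the members. NT had a mean log2 ratio of 1.16 ± 0.32 (SD, n = 3), SB of 0.67 ± 0.92 (SD, n = 4), TGFb of 1.52 ± 0.39 (SD, n = 4) and FGF of 1.90 ± 1.81 (SD, n = 3). TGFb minus SB was 0.85 (SE 0.50), a ratio 1.80 times as high. It was positive in 4 of 4 shared replicate numbers but did not pass a two-sided exact permutation test (p = 0.114, adjusted over the 3 tests 0.343). SB minus NT was −0.49 (SE 0.50; exact permutation p = 0.543, adjusted 0.543), negative in 2 of 3 shared numbers. TGFb minus NT was 0.36 (SE 0.27; exact permutation p = 0.257, adjusted 0.386), positive in 2 of 3. The smallest p these designs allow is 0.0286. Among libraries with at least 50 counts of the 2 arms, which leaves out SB replicate 2, TGFb minus SB was 0.41 (adjusted exact permutation p = 0.386).

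FGF minus NT was 0.74 (SE 1.06) and FGF minus SB 1.23 (SE 1.14) in log2 ratio, which differed by less or little more than their errors. Both rest on FGF replicate 3: without it they were −0.29 and 0.21. The value of TGFb minus FGF went from −0.38 to 0.65. In that library the 5p share (25.1%) was the highest of the FGF group and the 3p share (1.60%) the lowest of all 14 libraries.

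**Figure D3:**
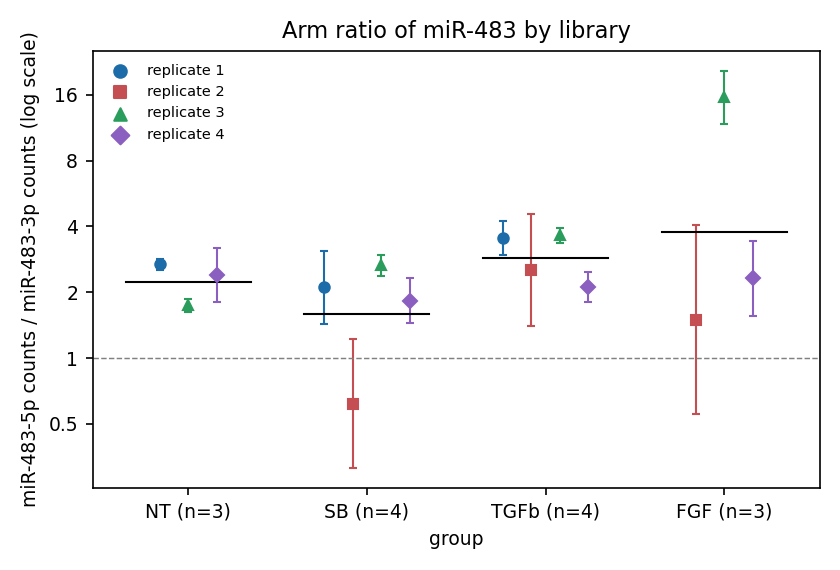
Counts of miR-483-5p divided by counts of miR-483-3p (log axis) in each library, by group, with 95% Wilson intervals and the geometric mean of the group as a black line; the dashed line marks equal arms. FGF replicate 3 stands at 15.6 and SB replicate 2 at 0.619, and the other 12 libraries lie between 1.50 and 3.65.

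Against the other hairpins of the table, miR-483 was among the most evenly split. There were 36 hairpins with both arms listed under 1 name and at least 100 counts in all. The lesser arm of miR-483, 3p, took 27.4% of its counts. Of the 35 others, 1 was more balanced, miR-574 (27.5%), and 34 less. The next were miR-423 (24.1%, 910 counts of 5p and 289 of 3p) miR-532 (24.1%) and miR-30a (21.6%, 105 counts of 5p and 29 of 3p). The median lesser arm of the others was 0%, and 27 had one under 5%. The split of miR-483 rests on more counts than that of any of these 4. The SD of its log2 ratio over the 14 libraries was 0.99.

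**Figure D4:**
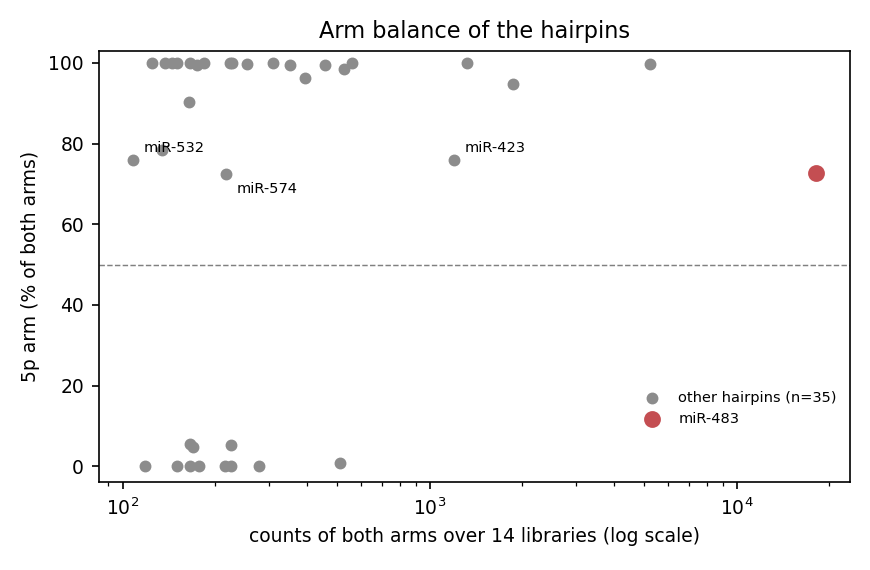
Share of the 5p arm (%) in the counts of both arms against those counts over the 14 libraries (log axis), for 36 hairpins with at least 100 counts; the dashed line marks equal arms. Most hairpins sit near 0% or 100%, and miR-483 (72.6%) has the highest count and lies with miR-574, miR-423, miR-532 and miR-30a (78.4%, not labelled) in between. The choice of miR-483 for the high shares of both arms favours such a place.

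The 5p arm also followed the replicate number. Its share ran from 23.2% to 38.9% in the 3 libraries numbered 1 and from 25.1% to 37.7% in the 4 numbered 3. It ran from 7.26% to 16.5% in the 3 numbered 2 and from 9.33% to 16.9% in the 4 numbered 4. All 7 libraries of numbers 1 and 3 thus lay above all 7 of numbers 2 and 4, whatever their group. This joining of the numbers was read from the same shares, so the split is a description. How many of the other tested miRNAs split this way was not counted, so it is not shown to be particular to the 5p arm. Across the tested miRNAs, same-numbered libraries of different groups deviated together in 15 of 18 pairs, at a correlation above 0.1. The labels do not say what a number stands for. The 3p arm did not divide this way, with 10.7% to 11.01%, 5.22% to 11.7%, 1.60% to 15.45% and 4.03% to 8.32% in numbers 1 to 4. Within shared numbers, the 5p share was higher in TGFb than in SB in 4 of 4 numbers (by 15.7, 9.19, 9.13 and 1.62 percentage points in numbers 1 to 4). It was higher in TGFb than in NT in 3 of 3, and in TGFb than in FGF in 3 of 3. The 5p share of FGF minus that of NT was −1.82 and −6.11 percentage points in numbers 3 and 4, which both groups hold. FGF minus SB was 0.56, −3.51 and −5.91 in numbers 2 to 4. The 3p share was lower in FGF than in NT in 2 of 2 shared numbers, and than in SB in 3 of 3. For TGFb minus SB the 3p share differed by −0.01, −5.24, −0.43 and −0.34 percentage points in numbers 1 to 4, against the direction of 5p. How many of the other tested miRNAs kept 1 direction in every shared number was not counted. The agreement within numbers is therefore a description.

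Totals ran from 345 to 14862 counts in number 1, from 115 to 231 in number 2, from 3241 to 9462 in number 3 and from 868 to 2770 in number 4. The split of the 5p share was not that of the totals in every library. TGFb replicate 1, with 1418 counts, had 38.9%, while SB replicate 4, with 1286, had 15.2%. SB replicate 1, with 345 counts, had 23.2%, above the 16.9% of TGFb replicate 4 with 2770. Correlations with the log10 total are given as descriptions with no p, because these shares chose the members and libraries of 1 number are not independent. Over the 14 libraries the 5p share had a Pearson r of 0.688 and a Spearman rho of 0.789. Its r was 0.615 without NT replicate 1 and FGF replicate 2, the libraries farthest from the median log10 total. It was 0.704 within groups and 0.313 within replicate numbers. For the 3p share r was 0.309 and rho 0.235, with an r of 0.165 without the same 2 libraries and 0.271 within numbers. For the log2 arm ratio r was 0.450 and rho 0.543, with an r of 0.445 without them and −0.11 within numbers.

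**Figure D5:**
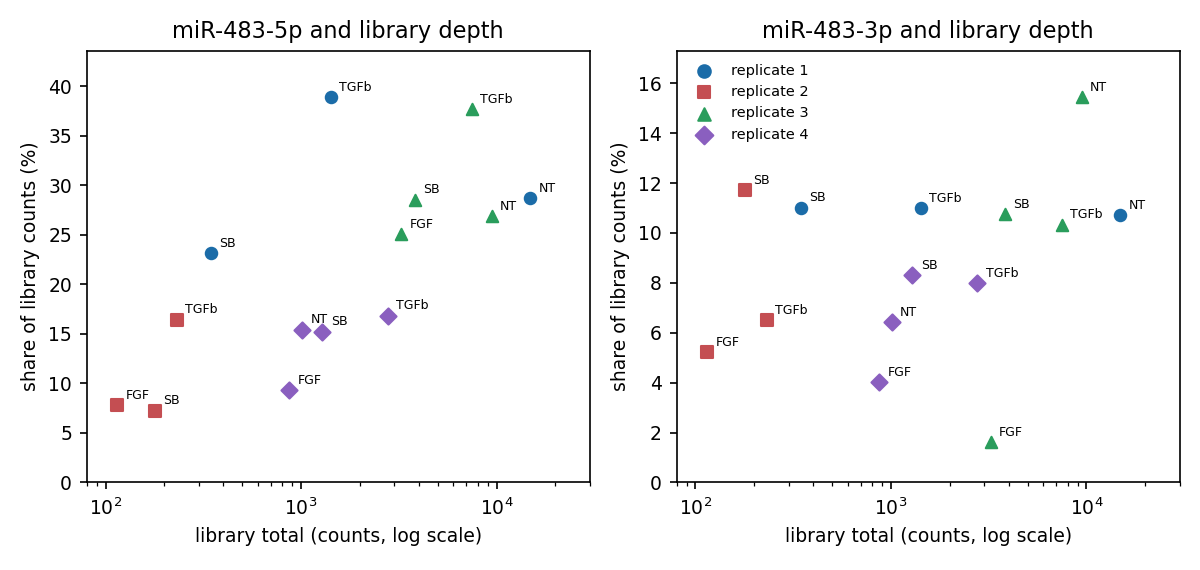
Share of counts (%) of miR-483-5p (left) and miR-483-3p (right) against the library total (counts, log axis); each point is 1 library, labelled with its group, and symbols give the replicate number. The 5p arm is above 23% in every library numbered 1 or 3 and below 17% in every library numbered 2 or 4, and the 3p arm shows no such split.

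The miRNA most like each arm over the 14 libraries was the other arm, by Spearman correlation of log2 CPM (counts scaled to a common library size) with the 46 other tested miRNAs (rho = 0.72). The points share library depth, and correlations here are descriptions. After the 5p arm's own partner came miR-99b-5p (rho = 0.68) and miR-125a-5p (0.67), which are neighbours in 1 cluster on chromosome 19. After the 3p arm's partner came miR-125a-5p (0.53) and miR-30d-5p (0.53). The medians over the 46 were −0.05 for 5p and 0.01 for 3p. Least like the 5p arm was miR-143-3p (−0.74), a miRNA known from smooth muscle and stromal cells. Least like the 3p arm was miR-21-5p (−0.87), a miRNA abundant in fibroblasts and known to be induced by growth factor signalling.

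The group values of miR-21-5p are a description, since it was picked from these same libraries as least like the 3p arm. The share of miR-21-5p was 5.21% to 6.34% in FGF, where miR-483-3p was lowest, and 0.0875% to 2.67% in NT. It was 0.706% to 2.90% in SB and 0.494% to 3.90% in TGFb, so FGF lay above the other groups without overlap. Of the 47 tested miRNAs, 8.51% were higher in FGF without overlap than in NT, 8.51% than in SB and 10.6% than in TGFb. These percentages count miR-21-5p itself. miR-143-3p was at 1.84% to 2.61% in FGF and at most 1.68% in the other groups. On deviations from the group means, an alternative added after the data were seen, the rho between the 2 arms dropped to 0.26. Each arm was then no longer the other's nearest: 3p was in place 13 for 5p, and 5p in place 6 for 3p. The nearest were then miR-30d-5p for 5p (0.75) and miR-99b-5p for 3p (0.47). With the 3p arm, miR-125a-5p dropped to 0.11 and miR-30d-5p to 0.32. With the 5p arm, miR-99b-5p had 0.54 and miR-125a-5p 0.55. miR-21-5p had −0.66 with the 3p arm within groups, and miR-143-3p −0.70 with the 5p arm. The least alike also changed: within groups they were miR-143-3p for 3p (−0.73) and let-7a-5p for 5p (−0.71).

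The imprinted neighbour of IGF2 is H19, a non-coding RNA whose first exon carries MIR675 (chromosome 11, 1996759 to 1996831, minus strand), 137 kb from MIR483. H19 and IGF2 are known to be expressed from opposite parental copies. miR-675-5p and miR-675-3p had 0 counts in all 14 libraries, against 13131 and 4956 for the 2 arms of miR-483. Pooled over all 14 libraries, a count of 0 in 47091 allows a share of up to 0.00637%, taken as 3 counts over the total. Single libraries, with 115 to 14862 counts, bound the share less tightly.

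The authors' deposited table of adjusted values changed the arms unequally. In 26 of the 28 values of the 2 arms the adjusted value differed from the raw count. For 5p the adjusted value was 0.606 to 0.850 of the raw count in the 7 libraries numbered 1 and 3, and 1.06 to 2.00 times it in the 7 numbered 2 and 4. For 3p it was 0.800 to 1.17 times the raw count. The highest 5p share was 5.36 times the lowest in the raw table and 2.43 times in the adjusted one, and for 3p these were 9.63 and 8.42. In the adjusted table the arm ratio of FGF replicate 3 was 8.60 and that of SB replicate 2 was 1.04, still the highest and lowest. The ratio of TGFb replicate 2 went from 2.53 to 6.08. The mean CPM in the authors' deposited table was highest in TGFb for 5p (264932) and lowest in FGF (145568). For 3p it was 112569 in NT, 110845 in SB, 91620 in TGFb and 43034 in FGF, the order seen in the raw shares. As percentages these means equal the mean shares of the adjusted values in each arm and group (26.5% in both for 5p in TGFb). They restate the adjusted values and are not a separate measure.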

How the data were processed

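Whole-number counts of mature miRNAs in 14 libraries were taken from the authors' deposited raw table, with no normalization. Per the labels' protocols, vesicles were precipitated with polyethylene glycol and libraries made with the QIAseq kit. The build is GRCh38 per the submitters' processing notes; the aligner and the use of molecular identifiers are not given in the sources used here. A second table, deposited by the authors, holds adjusted values (treated as a score, since the method is not stated) and the authors' mean CPM per group. Its 14 CPM columns of single libraries were not used.

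Shares are counts over the library total. Levels were fitted with edgeR 4.0.16 (R 4.3.3, quasi-likelihood, TMM, filterByExpr with a minimum count of 10, group means, all 14 libraries), with Benjamini-Hochberg adjustment at 0.05. The SE is the absolute log2 fold change over the square root of F. Arm ratios used log2 with 0.5 added to each count and a two-sided exact permutation test; correlations with depth are descriptions, although a permutation test had been planned. Depth ran from 115 to 14862 counts, so 1 count in the shallowest library is a large share; single libraries have 95% Wilson intervals. Scripts were tested on simulated data. Annotation was GENCODE 29, and mature sequences were from RefSeq.

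The members, the marker lists and the tests were chosen with earlier results of these data known. miRNAs named beside the members were taken by rule: the 3 most alike and the 1 least alike to each arm, the 3 next in mean share, the miR-675 neighbours, and the hairpins nearest in arm split. miRNAs with the same seed were not searched. miR-122-5p, miR-451a and the other miRNAs named with the marker lists are list members. miR-30a and let-7a-5p were named after their values were seen. Alternatives were RLE factors, library size only, miR-483 left out of the library sizes, DESeq2 1.42.0, no filter, a replicate block, limma 3.58.1 on log2 of the adjusted values, only the 2 groups compared, other settings of the ratio, and each library left out. Libraries of at least 500 counts and the deviations from group means were added after the data were seen.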

Additional observations from a re-analysis of the deposited data

How the results depend on the processing

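No paired design was assumed. Libraries of the same replicate number in different groups deviated together in 15 of 18 pairs at a correlation above 0.1 (mean 0.307, lowest 0.00574), and 10 of 14 libraries correlated best with their own number. With the replicate block, miRNAs past the threshold went from 1 to 2 in FGF against NT and from 0 to 3 in TGFb against SB. They went from 0 to 2 for TGFb with FGF, and to 1 for FGF with SB. In the order given these were 4.26%, 6.38%, 4.26% and 2.13% of the 47 miRNAs. The arms were among these calls: 3p in FGF against NT (log2 fold change −1.99, SE 0.52) and FGF with SB (−1.78, SE 0.47), 5p in TGFb against SB (0.85, SE 0.24, and an SE of 0.59 without the block), and both in TGFb with FGF (5p 1.31, SE 0.28; 3p 1.86, SE 0.48). Of these only 3p in FGF against NT was called without the block. None of the calls on the arms is read as support, since the members were chosen by measured values of these data. For 5p in FGF against NT the value was −0.73 (SE 0.29) with the block and −1.16 (SE 0.69) without it. The log2 arm ratio of TGFb minus SB was 0.85 with an exact sign-flip permutation p of 0.125 (adjusted 0.375), the smallest that 16 sign flips allow, so this test could not pass.

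Under the other settings that leave out no single library, all 54 level values of 5p and 46 of those of 3p moved by less than the SD within groups (0.94 and 0.61), and 8 of 3p moved by more. For 3p in FGF against NT the exceptions were −1.47 in the adjusted table, −3.004 in libraries of at least 500 counts, −3.13 with miR-483 left out of library sizes and −2.85 with no filter. For 3p in TGFb against FGF they were 1.16 (adjusted table), 2.69 (at least 500 counts) and 1.32 (library size only). For 3p in SB against NT it was −1.09 (miR-483 left out of library sizes). With counts summed over the group, which weights libraries by depth, the log2 arm ratio of SB minus NT turned to 0.10, that of FGF minus NT was 2.11 and that of TGFb minus FGF −1.54.

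The 1 call of FGF against NT became 0 with RLE factors, library size only, libraries of at least 500 counts, the adjusted table and a fit of just these 2 groups, and 3 with miR-483 left out of library sizes. With no filter there was 1 call, higher in FGF and so not miR-483-3p. The 1 call of SB against NT became 0 under the same 5 settings and with no filter, and 3 in DESeq2 and with miR-483 left out. For FGF with SB, DESeq2 gave 1 call and the fit of 2 groups 2. For TGFb with FGF these were 1 and 3. Under both settings miR-483-3p was among the calls of these comparisons, which is not read as support. The cause of the changes in calls was not tested.

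With each library left out in turn, 3p ran from −3.05 to −2.21 in FGF against NT, −2.18 to −1.62 in FGF against SB, 1.85 to 2.75 in TGFb against FGF, −0.91 to −0.27 in SB against NT, −0.48 to 0.01 in TGFb against NT and −0.09 to 0.57 in TGFb against SB. In the same order 5p ran from −2.73 to −0.99, −1.62 to −0.23, 1.16 to 2.90, −1.11 to −0.51, 0.03 to 0.56 and 0.54 to 1.28. The log2 arm ratio ran from −0.29 to 1.42 (FGF minus NT), 0.21 to 1.91 (FGF minus SB), −1.06 to 0.65 (TGFb minus FGF), −0.74 to −0.05 (SB minus NT), 0.18 to 0.51 (TGFb minus NT) and 0.41 to 1.10 (TGFb minus SB). Calls ran from 0 to 8 in FGF against NT and 0 to 9 in SB against NT, both highest without NT replicate 4, from 0 to 1 in TGFb against NT and in TGFb against FGF, and were 0 in the other 2.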
